A study of Mus musculus with 20 samples.

Results

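The genes described here are 10 immediate early transcripts of the mouse kidney, the early growth response genes Egr1, Egr2 and Egr3, the immediate early response genes Ier2, Ier3 and Ier5, the orphan nuclear receptors Nr4a1, Nr4a2 and Nr4a3, and the proto-oncogene Myc. They were taken by name from the array annotation, which holds them as 14 probes among 41174, and as 10 gene names among 27827. Total kidney RNA from C57BL/6 male mice of 8 to 12 weeks was labelled with Cy3 and hybridised to 20 Agilent arrays, 4 for each of 5 groups. No ischemia, preconditioning or hemin is recorded for Control mice. In IRI (ischemia and reperfusion injury) both renal pedicles were clamped for 45 min and the kidney was taken 6 h after the clamps were released. IRI+Hemin mice received hemin intraperitoneally at 25 mg/kg, 24 h ahead of the same operation, and Hemin mice received this dose alone. Hemin is an inducer of heme oxygenase 1. IPC+IRI mice underwent 15 min of ischemia 7 days before the IRI operation, which is called ischemic preconditioning. No group is recorded as operated on without ischemia, so a difference from Control may hold the operation and the anesthesia together with the ischemia.

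Immediate early genes are switched on in minutes after growth factors, stress or calcium signals, and they need no new protein for it. Serum response factor with its ternary complex partners and the CREB family are the best known regulators of their promoters, at elements called the CArG box and the cyclic AMP response element (CRE). The EGR proteins are zinc finger factors that bind a GC-rich element, the NR4A proteins are nuclear receptors that act without a known ligand, and MYC forms a dimer with MAX to raise ribosome production and growth. In the kidney, transcripts of this class are known to rise in tubules soon after ischemia.

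The RefSeq promoter table of the GRCm38.p6 build matched 6 of the 10 genes, and the 250 bases before the start are printed for the 5 of them that could be tested. Whether these genes share a regulator was not tested. Capitals mark the motifs searched on both strands, and the sequences run 5′ to 3′ in the direction of the gene. The Egr2 stretch (chr10:67537680-67537929, plus strand) precedes the most downstream of 5 annotated starts, and the others have 1 annotated start. Ier3 is at chr17:35821463-35821712, plus strand. Ier5 is at chr1:155099637-155099886, minus strand. Nr4a1 is at chr15:101266596-101266845, plus strand. Nr4a2 is at chr2:57124004-57124253, minus strand.
Egr2: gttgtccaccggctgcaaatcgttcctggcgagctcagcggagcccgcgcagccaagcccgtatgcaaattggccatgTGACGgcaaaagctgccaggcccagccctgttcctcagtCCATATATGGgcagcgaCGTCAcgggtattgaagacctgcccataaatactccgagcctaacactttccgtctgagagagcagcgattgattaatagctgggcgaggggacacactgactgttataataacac
Nr4a1: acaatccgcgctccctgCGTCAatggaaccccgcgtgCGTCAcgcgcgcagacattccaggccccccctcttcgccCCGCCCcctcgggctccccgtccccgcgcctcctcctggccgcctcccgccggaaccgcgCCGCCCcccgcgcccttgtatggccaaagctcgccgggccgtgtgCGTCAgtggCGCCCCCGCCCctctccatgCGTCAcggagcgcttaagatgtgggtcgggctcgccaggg
Nr4a2: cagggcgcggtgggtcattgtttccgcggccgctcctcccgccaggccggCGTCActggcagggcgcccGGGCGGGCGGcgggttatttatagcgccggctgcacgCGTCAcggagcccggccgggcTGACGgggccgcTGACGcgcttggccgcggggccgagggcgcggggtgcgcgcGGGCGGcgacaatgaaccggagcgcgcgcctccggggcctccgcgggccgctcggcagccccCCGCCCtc
Ier3: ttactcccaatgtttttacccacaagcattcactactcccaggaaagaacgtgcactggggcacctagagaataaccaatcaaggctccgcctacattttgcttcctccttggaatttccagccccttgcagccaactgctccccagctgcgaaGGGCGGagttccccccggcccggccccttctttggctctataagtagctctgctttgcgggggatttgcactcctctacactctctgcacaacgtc
Ier5: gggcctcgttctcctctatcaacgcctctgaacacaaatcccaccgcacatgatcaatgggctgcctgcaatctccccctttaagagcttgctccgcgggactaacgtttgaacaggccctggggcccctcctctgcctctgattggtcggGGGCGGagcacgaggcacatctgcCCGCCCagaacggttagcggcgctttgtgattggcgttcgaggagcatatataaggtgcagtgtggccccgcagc

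The motifs were the CRE core TGACG, the full CRE TGACGTCA, the CArG box, the EGR element GCGGGGGCG or GCGTGGGCG, and the GC box GGGCGG, and every match to the full CRE also holds the core. Over 32851 promoter windows of 250 bases in the table, 17.8% held the CRE core, 1.55% the full CRE, 1.47% a CArG box, 3.06% an EGR element and 32.7% a GC box. Egr2 held a CArG box that begins at -133 from the start and CRE cores at -172 and -116. Nr4a1 held CRE cores at -233, -213, -69 and -40, and an EGR element at -60 that overlaps the GC box at -55. Nr4a2 held CRE cores at -200, -144, -123 and -111. In Ier3 and Ier5, GC boxes were the only motif of this search that was found. Nr4a3, whose probe was not detected, also held CRE cores, at -231, -213, -205 and -147. These matches describe letters in a window and not binding.

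Each value below is a log2 expression, which is the log2 of the processed signal divided by the 75th percentile of that array, so that 0 is the level of the 75th percentile and 1 unit is a doubling. A gene counted as well above background on an array where at least 1 of its probes did. Between 57.4% and 67.4% of the genes were well above background on an array. The 4 arrays of each group shared 1 slide and no slide held a second group, so that a slide effect and a group effect cannot be told apart. Control and IRI shared a scan day, IPC+IRI and Hemin shared another, and IRI+Hemin had its own. The summed level of 7 tubule markers was 8.41 to 9.02 over all 20 arrays, although single markers differed from Control. Aqp2 rose and Lrp2 fell in each of the 3 injured groups, Slc34a1 fell in IPC+IRI, IRI+Hemin and Hemin, Slc12a3 rose in IPC+IRI, and Pvalb fell in IRI+Hemin. The sum of 3 podocyte markers was 1.09 to 1.91 in Control, 1.08 to 1.44 in Hemin, 0.70 to 1.25 in IRI, 0.55 to 1.17 in IRI+Hemin and 0.38 to 0.86 in IPC+IRI. That of 5 endothelial markers was 3.43 to 3.76 in Control and between 2.94 and 4.45 in the other groups, and in IRI 1 of them rose and 2 fell. The sum of 8 leukocyte markers was -0.42 to 0.053 in Control and -0.34 to 0.99 in Hemin, against 1.86 to 3.16 in IRI, 1.47 to 3.43 in IRI+Hemin and 2.75 to 4.34 in IPC+IRI. Of these 8 markers, 3 rose in IRI (Cd68, S100a8 and S100a9), 1 fell (Cd79a), 2 did not pass the test and 2 were too dim for it. S100a8 and Cd79a met the filter only through the group in which they were higher, being well above background on 2 Control arrays and on 1 IRI array in the other. The leukocyte and podocyte sums moved with the injured groups as the early genes below did, in the opposite direction for podocytes, and the part of these markers in those results was not tested. In whole kidney RNA, more cells of a type and more RNA per cell cannot be told apart. Hmox1, the heme oxygenase 1 gene that hemin is given to induce, differed by 0.56 (standard error 0.46, adjusted p = 0.36 in limma) between Hemin and Control, and rose by 4.67 in IRI. The labels do not say whether the 4 arrays of a group hold separate animals, so the p-values measure the spread between these arrays.

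All 8 members that were bright enough to be tested rose in IRI, between 3.82-fold for Ier3 and 16.5-fold for Myc. The remaining members, Egr3 and Nr4a3, could not be tested. Of the 17711 genes tested in IRI vs Control with limma, 17.1% were higher and 33.9% lower at an adjusted p below 0.05, and the median log2 difference of all of them was -0.17. In each of the 8 members every IRI array lay above every Control array, as in 14.8% of all genes tested. The median over all 10 members, dim ones included, was 2.46.

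Egr1, a factor that starts inflammatory and growth programmes, was measured by 1 probe (NM_007913, mm9 chromosome 18 from 35024395 to 35024454). Its log2 expression was 1.00, -0.16, 2.36 and 2.64 on the 4 Control arrays and 3.58, 5.53, 4.08 and 4.00 on the IRI arrays. The Control arrays were spread over 2.80 units, more than those of any other group, and still did not overlap with IRI. The rise was 2.83 (standard error 0.55, adjusted p = 0.000343), or 7.13-fold. Egr2, the relative known for its part in myelination and lymphocyte tolerance, was read by 10 spots of 1 probe (NM_010118, chromosome 10 from 67004758 to 67004817), which had a median SD of 0.082 within an array. Egr2 stood at -3.93, -3.10, -3.38 and -2.75 in Control and at 0.88, 0.12, 0.43 and 0.48 in IRI. The gap between the groups was wide against the spread within each of them. Its rise of 3.77 (standard error 0.29, adjusted p = 2.68e-08) was 13.6-fold, and 1.98 with a normexp background correction, under which it still passed.

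Ier2, a nuclear protein of the early growth response, was at -0.41, -0.75, -0.22 and 0.32 in Control and at 1.63, 2.95, 2.15 and 2.26 in IRI. It rose by 2.52 (standard error 0.31, adjusted p = 4.32e-06), or by 1.56 with a mean of log2 values over its 2 probes, which were 2.59 and 0.53 higher in IRI. Ier3, a regulator of cell survival that NF-kB induces (NM_133662, chromosome 17 from 35959528 to 35959587), was at 0.17, 1.23, 1.24 and 0.20 in Control and at 2.04, 2.87, 2.60 and 3.08 in IRI. All Control arrays of Ier3 lay below IRI, and the rise was 1.93 (standard error 0.26, adjusted p = 9.43e-06). Ier5, which binds protein phosphatase 2A and heat shock factor 1 (NM_010500, chromosome 1 from 156944778 to 156944837), was at 1.44, 1.87, 1.13 and 1.89 in Control and at 3.81, 4.52, 3.91 and 3.72 in IRI, and rose by 2.41 (standard error 0.22, adjusted p = 1.90e-07).

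Nr4a1, also called Nur77, is the NR4A receptor best known in apoptosis and macrophages (NM_010444, chromosome 15 from 101105071 to 101105130). It was at -0.20, 1.92, 0.96 and 1.25 in Control and at 3.52, 4.31, 3.99 and 3.86 in IRI. Control varied by 2.12 units and IRI by less, with a rise of 2.94 (standard error 0.36, adjusted p = 3.90e-06). Nr4a2, or Nurr1, known from dopamine neurons (NM_013613, chromosome 2 from 56960699 to 56960758), was at -4.11, -2.63, -4.01 and -3.51 in Control and -1.86, -1.24, -1.44 and -0.75 in IRI. It was well above background on all 20 arrays, and its rise was 2.24 (standard error 0.37, adjusted p = 8.21e-05), or 1.07 with a normexp background correction.

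Myc had the largest rise of the 8 tested members in IRI. Its 3 probes (NM_010849) lie within chromosome 15 from 61820925 to 61821576, and 1 of them was printed as 10 spots with a median SD of 0.058 within an array. Averaged over the probes, Myc was at -0.26, -1.86, -1.28 and -1.29 in Control and at 2.62, 3.10, 2.98 and 2.79 in IRI. The 4 IRI arrays lay within 0.48 units of each other and far above Control. The rise of 4.05 (standard error 0.26, adjusted p = 3.08e-09) was 16.5-fold, and single probes gave 4.06, 4.15 and 3.55.

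**Figure D1:**
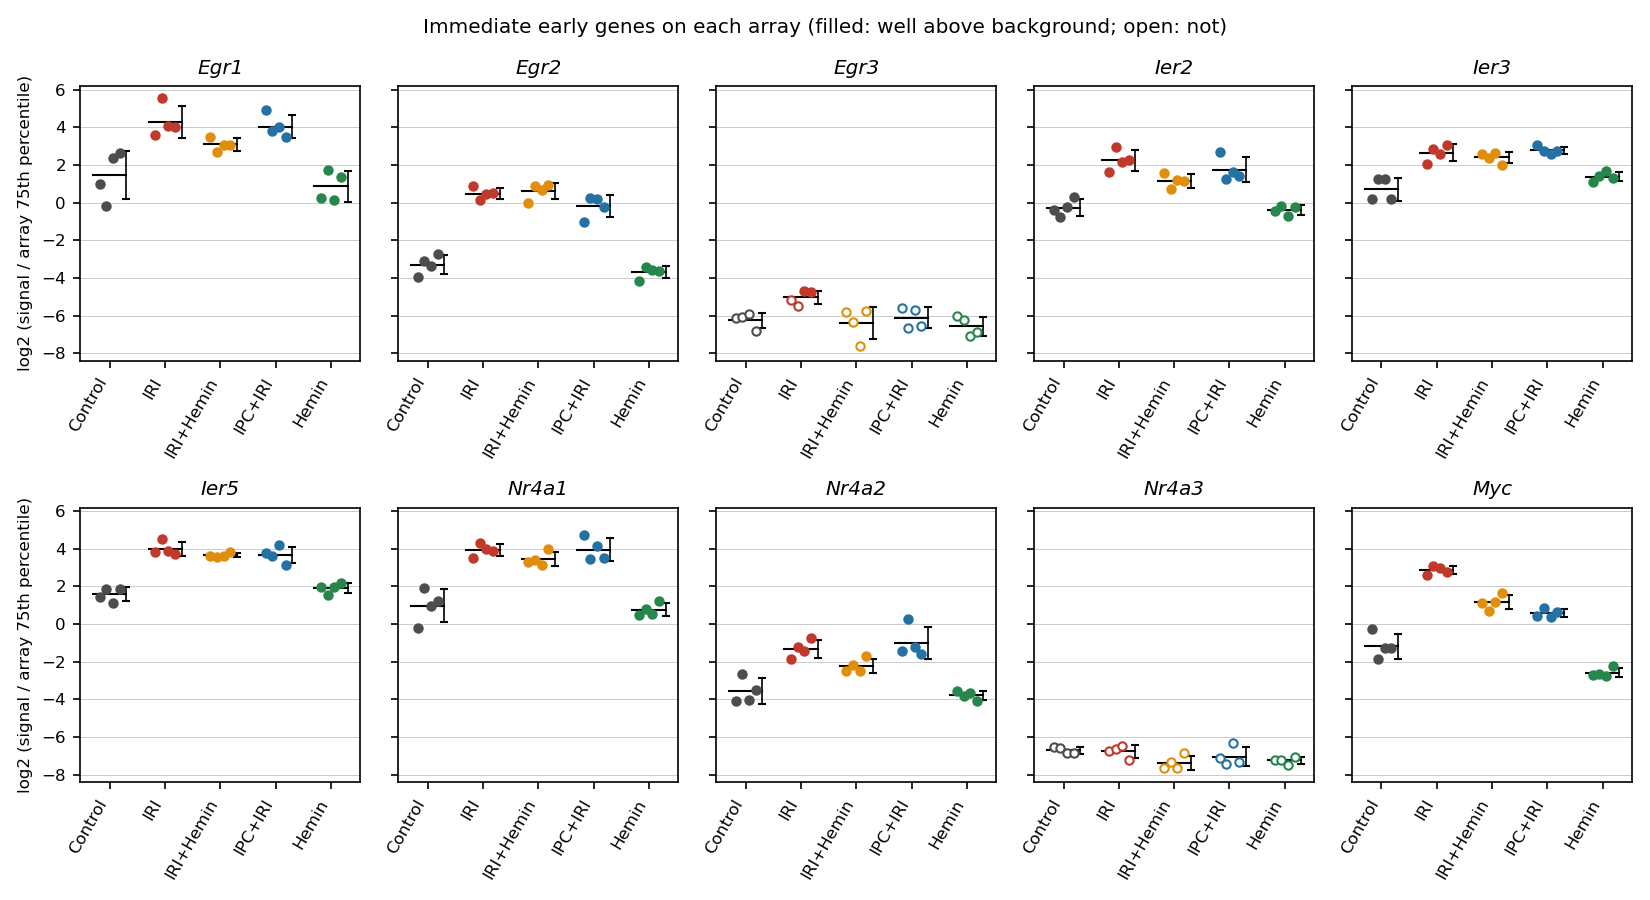
Log2 expression of the 10 genes (vertical axis, log2 of the signal over the 75th percentile of the array) on each of the 4 arrays of the 5 groups; horizontal bars are means, error bars SD, and open points were not well above background. The 8 genes with filled points in all groups stood higher in IRI, IRI+Hemin and IPC+IRI than in Control and Hemin, while Egr3 and Nr4a3 were mostly open points below -4.

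The same 8 members were also higher than Control in both injured groups that had been conditioned beforehand, although SAM called 4 of them in each comparison. Over all genes tested, SAM called 781 of 18342 higher in IPC+IRI and 979 of 18483 in IRI+Hemin. In IPC+IRI vs Control, where 23.3% of 18342 genes tested were higher, the log2 differences ran from 1.75 for Myc to 3.10 for Egr2. In IRI+Hemin vs Control, where 24.4% of 18483 genes tested were higher, they ran from 1.34 for Nr4a2 to 3.91 for Egr2. At the study's 4-fold cutoff for IPC+IRI vs Control, 7 members were called, without Myc, beside 2.03% of all genes tested that were called higher. The Myc difference ran from 1.28 to 2.19 over the alternatives, and the study lists Myc among its up-regulated genes there. These comparisons share the Control arrays with IRI vs Control. With a normexp background correction Egr2 was 1.50 higher in IPC+IRI and 2.18 higher in IRI+Hemin, behind Nr4a1 at 2.80 and 2.30. Myc stood first in IRI and last in IPC+IRI, where normexp put Nr4a2 (1.12) below Myc (1.28).

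In IPC+IRI, Egr1 was at 4.90, 3.78, 4.01 and 3.47, above every Control array, and the difference was 2.58 (standard error 0.55, adjusted p = 0.000684). In IRI+Hemin, Egr1 was at 3.51, 2.71, 3.08 and 3.08, which is 1.63 above Control (standard error 0.55, adjusted p = 0.0168). Without Control replicate 2, the lowest array of its group, that difference was 1.09 with an adjusted p of 0.0718. Egr2 was at -1.01, 0.27, 0.21 and -0.22 in IPC+IRI and at -0.02, 0.89, 0.70 and 0.93 in IRI+Hemin, above every Control array in both.

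Nr4a1 was at 4.71, 3.45, 4.15 and 3.50 in IPC+IRI and at 3.29, 3.41, 3.12 and 3.96 in IRI+Hemin, rises over Control of 2.97 and 2.46. Nr4a2 was at -1.41, 0.27, -1.21 and -1.60 in IPC+IRI, a rise of 2.58 (adjusted p = 1.94e-05 in limma). In IRI+Hemin it was at -2.52, -2.18, -2.48 and -1.71, and rose by 1.34 (adjusted p = 0.00504), which a normexp background correction reduced to 0.18 (adjusted p = 0.507). Every array of the 3 injured groups lay above every Control array for Nr4a1 and Nr4a2, as in 17.7% of all genes tested for IPC+IRI and in 19.8% for IRI+Hemin.

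Ier3 was nearly level over the injured groups, at 3.03, 2.72, 2.60 and 2.74 in IPC+IRI and 2.61, 2.37, 2.64 and 2.00 in IRI+Hemin. Its rises over Control were 2.06 and 1.69. Ier5 was at 3.79, 3.61, 4.18 and 3.11 in IPC+IRI and at 3.62, 3.58, 3.60 and 3.84 in IRI+Hemin, with rises of 2.09 and 2.08. Ier2 rose by 2.02 in IPC+IRI and by 1.42 in IRI+Hemin, where the deposited log2 matrix gave 0.74 with an adjusted p of 0.375.

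Set against IRI, a single member was lower in IPC+IRI, which was Myc, and 2 were lower in IRI+Hemin, which were Myc and Ier2. No member was higher in either comparison, in each of which 26.3% of all genes tested were. Of all genes tested, 17.9% were lower in IPC+IRI vs IRI and 18.1% in IRI+Hemin vs IRI, so these counts were near the background share or below it. Median log2 differences over the 10 members, with the dim and untested Egr3 and Nr4a3 included, were -0.29 and -0.75, beside 0.093 and 0.082 over all genes tested.

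Myc was at 0.41, 0.83, 0.40 and 0.66 in IPC+IRI and at 1.12, 0.70, 1.19 and 1.64 in IRI+Hemin. Both groups lay between Control and IRI and overlapped with neither. The difference from IRI was -2.30 in IPC+IRI (standard error 0.26, adjusted p = 7.16e-06), a 4.91-fold lower level, and -1.71 in IRI+Hemin (standard error 0.26, adjusted p = 6.20e-05), a 3.27-fold lower level. Each of the 3 probes was lower than in IRI, by 2.06, 2.50 and 2.96 units in IPC+IRI and by 1.50, 1.90 and 2.17 units in IRI+Hemin. With any of the 8 arrays of a comparison left out in turn, the Myc difference stayed between -2.38 and -2.22 in IPC+IRI and between -1.87 and -1.56 in IRI+Hemin. An exact two-sided permutation test of 4 against 4 arrays gave p = 0.0286 in each, the smallest it can give. It gives this value to any gene whose arrays do not overlap. All arrays lay below IRI in 15.7% of genes tested for IPC+IRI and in 15.5% for IRI+Hemin. From high to low, the groups ran IRI, IRI+Hemin, IPC+IRI, Control and Hemin for Myc, and the arrays overlapped in IRI+Hemin and IPC+IRI alone among neighbours.

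Ier2 was at 1.57, 0.70, 1.20 and 1.13 in IRI+Hemin, below all 4 IRI arrays, as were 15.5% of all genes tested. Ier2 differed from IRI by -1.10 (standard error 0.31, adjusted p = 0.00829). In IPC+IRI it was at 2.70, 1.27, 1.63 and 1.41, which overlapped with IRI, and the difference of -0.50 did not pass the test (adjusted p = 0.20). The 2 Ier2 probes lie 1529 bases apart on chromosome 8 and did not behave alike. Probe 1 (NM_010499, from 87185211 to 87185245) was 2.59 higher in IRI than in Control and 1.12 lower in IRI+Hemin than in IRI, a pattern that set the mean because this probe carried more of the signal. Probe 2 (AK032692, from 87183623 to 87183681) was 0.53 higher in IRI than in Control, and 0.048 higher in IRI+Hemin than in IRI. Averaging log2 values over the probes left a difference between IRI+Hemin and IRI of -0.54 (adjusted p = 0.0892), and no normalization between arrays one of -0.73 (adjusted p = 0.108). SAM did not call Ier2 in this comparison either.

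**Figure D2:**
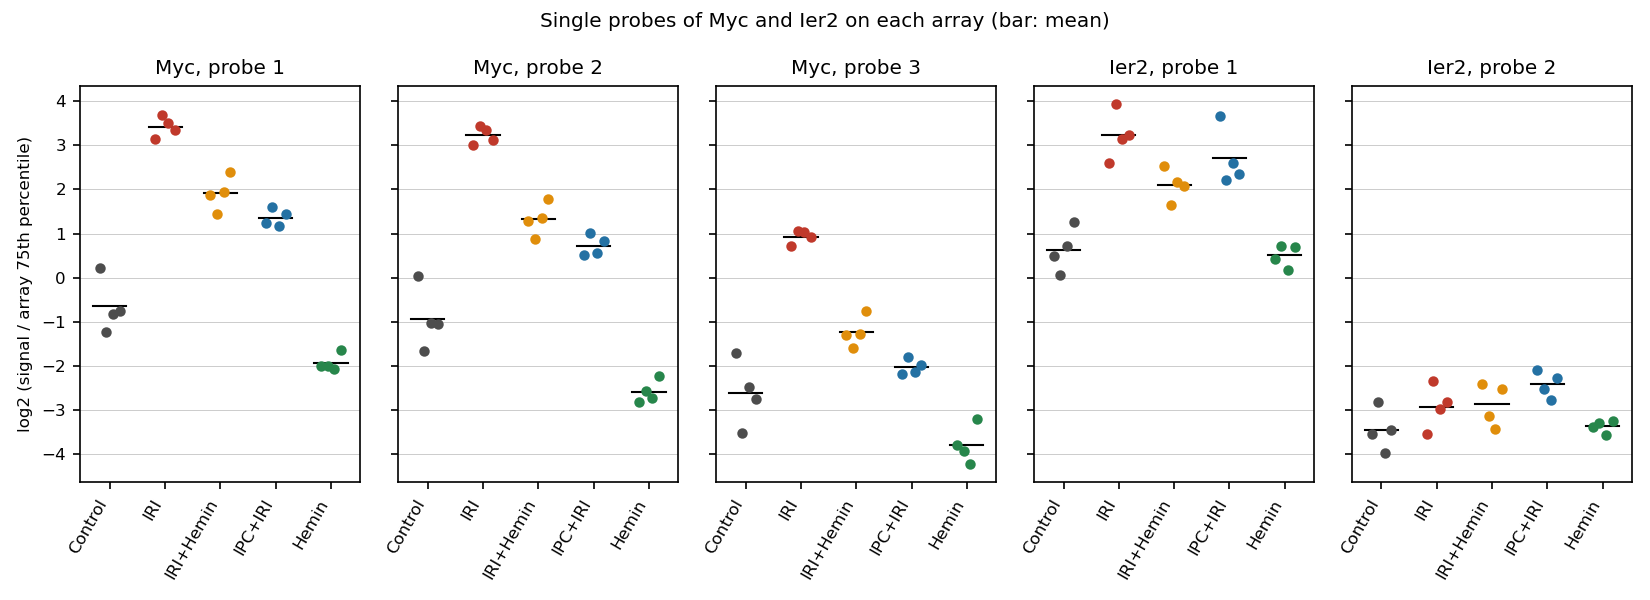
Log2 expression (signal over the 75th percentile of the array) of the 3 Myc probes and the 2 Ier2 probes on each array of the 5 groups, with bars at the means. The Myc probes ordered the groups alike, with IRI highest and Hemin lowest, while Ier2 probe 2 stayed between -4 and -2 in all groups.

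For other members the conditioned groups lay near IRI or the test did not settle a difference. Egr1 was 1.20 lower in IRI+Hemin than in IRI (standard error 0.55) with no overlap of the arrays, as in 15.5% of all genes tested, and the adjusted p was 0.0818. Nr4a2 was 0.90 lower (standard error 0.37, adjusted p = 0.0566), with IRI+Hemin replicate 4 inside the IRI range. In IPC+IRI, Egr2 differed from IRI by -0.67 (standard error 0.29, adjusted p = 0.0735). Some alternatives called these differences in limma. A fit of the compared arrays alone called Egr1 (adjusted p = 0.036) and Nr4a2 (adjusted p = 0.0244). Normexp also called Nr4a2 (adjusted p = 0.00499), and a block for the replicate number called Egr2 (adjusted p = 0.0417). Nr4a1 differed by 0.031 (standard error 0.36) in IPC+IRI and by -0.48 (standard error 0.36) in IRI+Hemin, Ier3 by 0.13 and -0.24, and Ier5 by -0.32 and -0.33, with arrays that overlapped with IRI in each case.

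**Figure D3:**
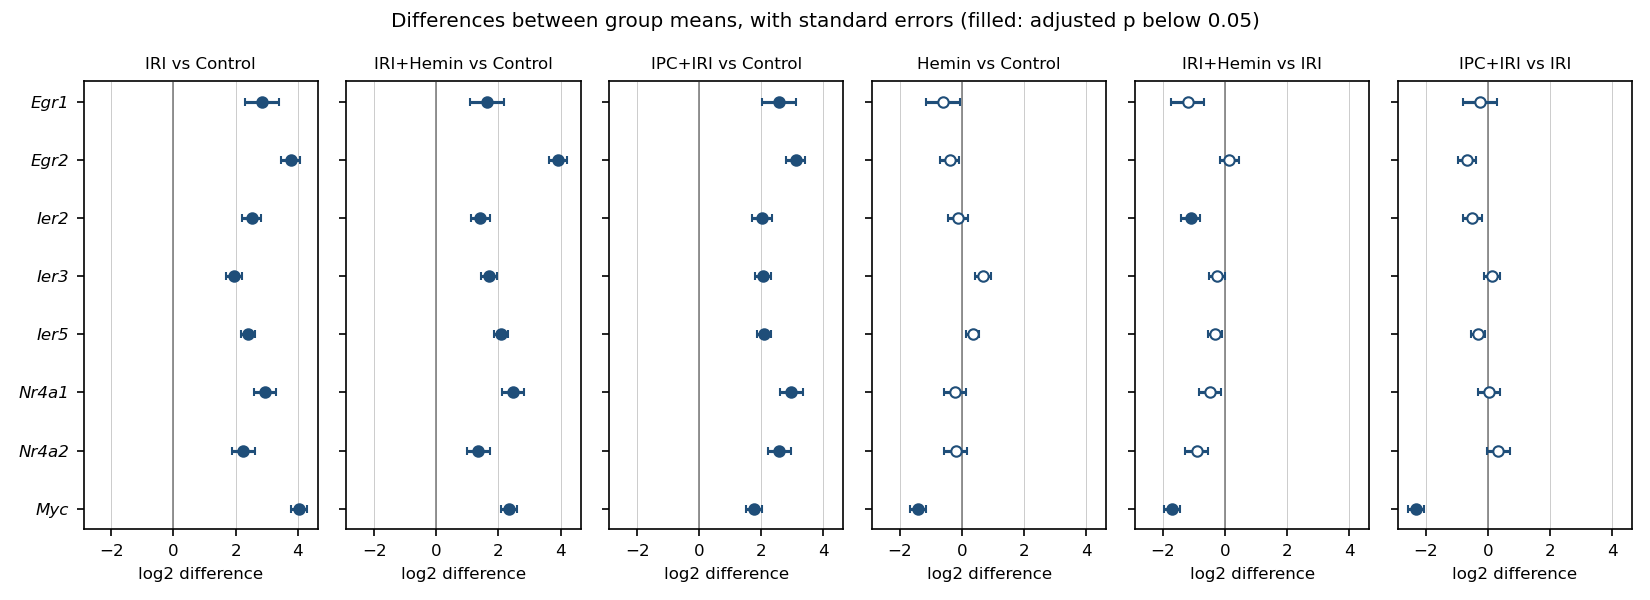
Log2 differences between group means (horizontal axis) with standard errors for the 8 tested members in 6 comparisons; filled points passed an adjusted p below 0.05. All points are filled and to the right of 0 in the 3 comparisons of an injured group with Control, and Myc is filled to the left of 0 in the remaining 3.

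In Hemin without surgery Myc was lower than in Control, and no other member passed the threshold. Myc was at -2.70, -2.63, -2.76 and -2.22 on the 4 Hemin arrays, all below Control, as in 18.1% of all genes tested. The difference was -1.40 (standard error 0.26, adjusted p = 0.000622). The single probes differed by -1.29, -1.66 and -1.17. Of all 18572 genes in this test, 17.6% were lower in Hemin and 18.5% higher. The direction was negative under every scaling tried, although the deposited matrix, which carries no scaling between arrays, gave -0.68 with an adjusted p of 0.0661. SAM did not call Myc in this comparison, nor did the study's 3-fold cutoff, which the fitted value did not reach.

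Ier3 was at 1.12, 1.42, 1.68 and 1.30 in Hemin, above the lower pair of Control arrays and overlapping with the upper pair, and its difference of 0.67 (standard error 0.26) had an adjusted p of 0.0506. Egr1, at 0.23, 1.73, 0.12 and 1.37, and Egr2, at -4.14, -3.40, -3.59 and -3.63, overlapped with Control. So did Nr4a1, at 0.47, 0.82, 0.51 and 1.21, and Nr4a2, at -3.55, -3.80, -3.64 and -4.10. Ier5 was at 1.99, 1.55, 1.95 and 2.19 and Ier2 at -0.47, -0.19, -0.72 and -0.22, with differences from Control of 0.34 and -0.13. Without normalization between arrays 2 members, Ier3 and Ier5, were called higher and Myc lower, where 8822 of 18572 genes tested were called higher and 490 lower. In that setting the median difference of all genes tested was 0.62, against 0.057 with scaling.

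Whether the rise after IRI differed between mice with and without hemin was tested as the interaction, the rise from Hemin to IRI+Hemin less the rise from Control to IRI. Of 19058 genes tested, 1.96% were negative and 5.83% positive at an adjusted p below 0.05, and no member was among them in limma. The most negative value among the tested members was -0.96 for Ier2 (standard error 0.44, unadjusted p = 0.0425, adjusted p = 0.205). Ier3, at -0.91 (adjusted p = 0.144), and Ier5, at -0.67 (adjusted p = 0.224), also had an unadjusted p below 0.05 in limma. For Myc the interaction was -0.31 (standard error 0.36, adjusted p = 0.678), so that Myc was lower in mice given hemin with and without IRI and the difference between the 2 rises was within its error.

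Egr3 and Nr4a3 were too dim for a test. Egr3, a relative of Egr1 and Egr2 with a part in T cell anergy, was well above background on 2 IRI arrays, replicates 3 and 4 at -4.72 and -4.77, and on none of the other 18. Its level in IRI was -5.03 ± 0.36 and in Control -6.24 ± 0.40 (SD, n = 4), and since the IRI mean lay under the level needed for detection in Control, no fold is given. The 2 Egr3 probes, on chromosome 14 from 70478827 to 70478886 and from 70481979 to 70482038, were not well above background on any Control array, and in IRI the first was so on 0 and the second on 2 arrays. Nr4a3, also called Nor1, was well above background on none of the 20 arrays, with means between -7.37 and -6.70 over the groups. Its single probe spans chromosome 4 from 48080690 to 48083876.

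The other genes of the pathways were read from lists of regulators, partners and targets, and their counts in IRI stand beside 17.1% of all genes tested higher and 33.9% lower. Of the 8 FOS, JUN and ATF3 factors, the partners of the members in the early response, 7 were well above background on all arrays of IRI and Control, and these rose in IRI by 1.70 to 5.57. Fosl1 also passed the test, but it met the filter through IRI only, since in Control a single array (1 of 4) stood well above background. Fosl2 was at 0.54 ± 0.23 in IRI and -2.54 ± 0.089 in Control (SD over 4 arrays), a rise of 3.07, Junb rose by 2.50 and Atf3 by 5.57. Of 10 further early response genes 9 rose in IRI, with a median of 1.88, among them the growth inhibitor Btg2 by 2.96, its relative Btg1 by 1.46, the stress gene Gadd45b by 2.76 and the kinase gene Pim1 by 1.78. In IRI+Hemin vs IRI, 5 of the 8 FOS, JUN and ATF3 factors and 4 of the 10 further early genes fell and none rose, where 18.1% of all genes tested fell and 26.3% rose. Fosl2 was 1.76 lower there (adjusted p = 3.12e-07 in limma), while Junb was at 4.97 in both groups and Atf3 differed by 0.12 (standard error 0.58). In IPC+IRI vs IRI, 2 of the 8 factors fell, Fosl1 and Fosl2, and of the 10 further genes 4 fell and 2 rose, Gadd45b by 1.61 and Ier3ip1 by 0.66, beside 17.9% of all genes tested that fell and 26.3% that rose.

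Of 5 SRF and ternary complex factor genes tested, Srf rose by 0.77, Elk4 by 0.75 and Mkl1 by 0.55 in IRI, Elk3 fell by 0.84 and 1 did not pass. Of 7 CREB family and coactivator genes, 3 rose and 2 fell, with Crem 1.22 higher (adjusted p = 0.000854 in limma), Atf1 0.66 higher, Crtc2 0.50 higher, Crtc3 0.88 lower and Creb1 0.59 lower. Of 3 EGR partners tested, Nab1 rose by 0.54, Nab2, a corepressor that EGR factors induce in other cells, fell by 0.62, and Wt1 did not pass.

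Of 10 genes tested that are known as EGR1 targets, 7 were higher and 1 lower in IRI, with a median of 0.78 over these 10. Ccl2, a chemokine for monocytes, rose by 4.83 in IRI, F3, the tissue factor of coagulation, by 3.36, and Icam1, an adhesion molecule for leukocytes, by 2.22. In IRI+Hemin vs IRI, 5 of these 10 fell and none rose, where 18.1% of all genes tested fell and 26.3% rose. Ccl2 was 2.06 lower there and F3 1.00 lower, and Icam1 differed by 0.11 (standard error 0.19). In IPC+IRI vs IRI, 4 fell and none rose, beside 17.9% and 26.3% of all genes tested. Ccl2 was 1.86 lower and F3 1.47 lower in that comparison. The growth factor gene Pdgfa rose by 1.67 in IRI, differed by 0.33 (standard error 0.20, adjusted p = 0.191 in limma) in IRI+Hemin vs IRI, and rose by 1.01 in Hemin vs Control. None of 7 NR4A partners and glucose targets rose in IRI, and Fbp2 fell by 0.58 and Rxra by 0.41.

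Targets and partners of MYC moved in both directions in IRI, in which 17.1% of all genes tested were higher and 33.9% lower. Of 13 MYC target genes tested in IRI vs Control, 5 rose, 3 fell and 5 did not pass, with a median of 0.18, beside -0.17 over all genes. The ribosome assembly gene Nol5, now called Nop58, rose by 1.06 and Eif4e by 0.52, whereas Cad fell by 0.65 and Cdk4 by 0.56. In IPC+IRI vs IRI, in which Myc was lower, 6 of these 13 targets rose and 2 fell, with a median of 0.35, while 26.3% of all genes tested rose and 17.9% fell with a median of 0.093. Nol5 was 0.54 higher there (adjusted p = 0.011 in limma). In Hemin vs Control, 5 targets rose and none fell, beside 18.5% and 17.6% of all genes tested, and Nol5 was 0.82 higher. Of 9 MYC network partners tested in IRI, Mnt rose by 0.89, 4 fell, among them Mycl1 by 0.98, Mxd1 by 0.62 and Mga by 0.43, and 4 did not pass. Among 4 injury markers, Lcn2 rose by 5.06 and Sox9 by 5.26 in IRI, and Havcr1 differed by 0.79 (adjusted p = 0.0503 in limma). Krt20, the remaining marker, also passed the test, but met the filter through IRI only, with 1 of 4 Control arrays well above background.

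**Figure D4:**
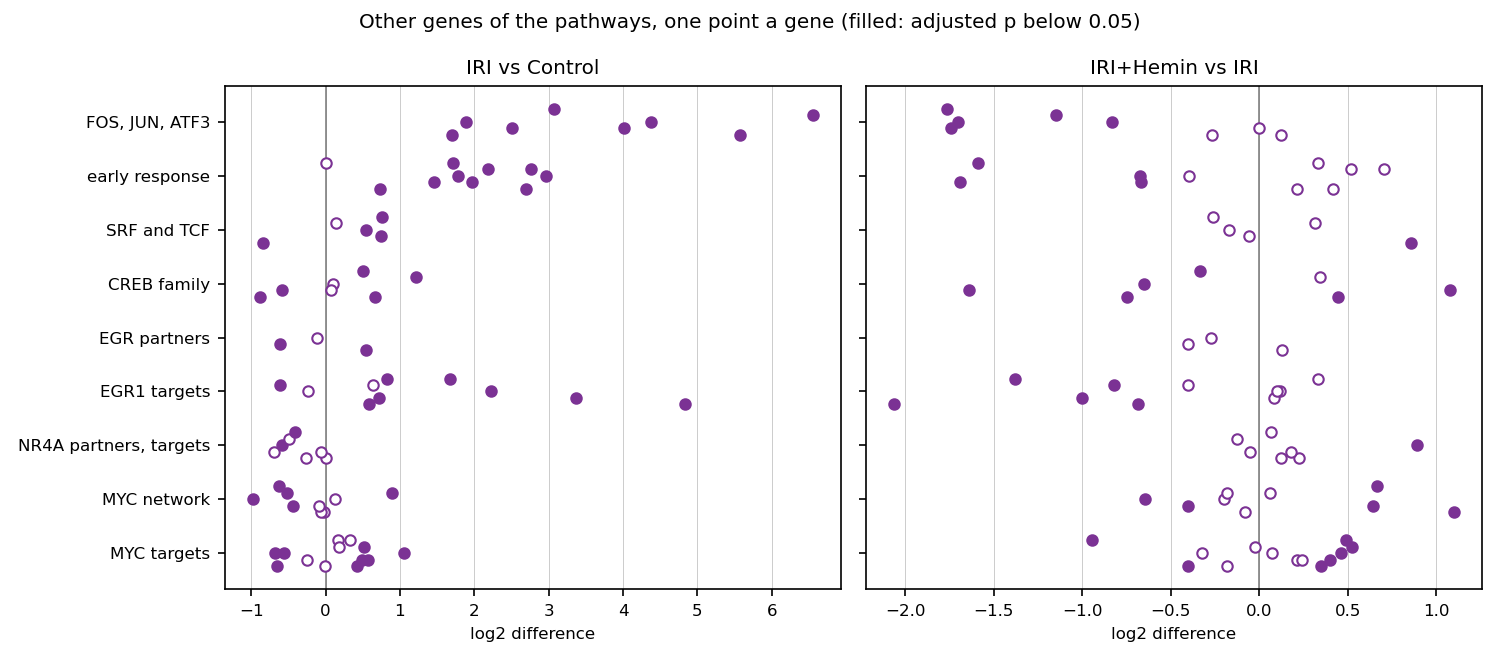
Log2 differences of the other pathway genes (horizontal axis, 1 point a gene, tested genes only) in IRI vs Control and in IRI+Hemin vs IRI, by list; filled points passed an adjusted p below 0.05. In IRI, 7 FOS, JUN and ATF3 points lie between 1.70 and 5.57, with Fosl1, dim in Control, to their right, and the MYC targets lie on both sides of 0.

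For 3 members, the genes with the most similar differences from Control over the 4 other groups were sought among 16508 genes, by the root mean square distance of the group means. Nearest to Egr1 were Hk2 (distance 0.23), Myd116 (0.24) and Fgfbp1 (0.31). Hk2 was 3.09 above Control in IRI, 1.95 above it in IRI+Hemin and 2.70 above it in IPC+IRI, and differed by -0.43 in Hemin. Nearest to Nr4a1 were Rasd1 (0.17), NAP058430-1 (0.23) and Gas2l3 (0.24). The genes nearest to Myc were farther away, 8430408G22Rik at 0.53, Fos at 0.55 and Dusp8 at 0.63. Fos, a classical immediate early gene, was 4.01 above Control in IRI, 2.27 in IRI+Hemin and 2.85 in IPC+IRI, and 1.47 below it in Hemin, where its adjusted p was 0.0949 in limma.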

How the data were processed

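Kidney RNA of 20 arrays in 5 groups of 4 was compared, with groups taken from the sample labels. The authors deposited an intensity for every spot, as it came from the scanner software Agilent Feature Extraction 9.5.3.1, which subtracted a background from each spot and removed no difference between arrays. A log2 matrix of the same signal was also deposited by the authors, and 100% of its values for 33598 probes with 1 spot lay within 0.001 of the log2 of that signal. It served as an alternative. Coordinates of probes are on mm9, the build in the annotation of the files.

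Uneven spots and outliers among copies, as the scanner software marked them, were left out (11 values of the 32 member spots over the 20 arrays), while saturated spots stayed. Signals were averaged over the copies of a probe, scaled by the 75th percentile of the array, averaged over the probes under 1 gene name, and then put on the log2 scale. Tested genes had at most 1 missing value among the arrays compared, and were well above background on 3 or more of the 4 arrays of a group. The model of limma 3.58.1 (R 4.3.3, with the package data.table, version 1.17.8) gave a mean to each group from all 20 arrays, which left 15 residual degrees of freedom. Adjustment was by Benjamini-Hochberg over all genes of a comparison, and genes passed at an adjusted p below 0.05. Single members were also compared by an exact permutation test of the arrays. The fit was checked on simulated data. Figures were drawn with matplotlib 3.10.9 in Python 3.11.15.

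The members and the gene lists were chosen with earlier results of these data known. Named were all members, the 3 genes with the nearest pattern for Egr1, Nr4a1 and Myc among genes well above background on at least 15 arrays, and at most 4 genes a list, taken from those with the lowest adjusted p in IRI vs Control and those that passed in the opposite direction; a gene outside this rule that is named for another comparison, beyond the 4 of its list or as a cell type marker (Ier3ip1, Creb1, Cd68, S100a8, S100a9, Cd79a, Aqp2, Lrp2, Slc34a1, Slc12a3, Pvalb, Pdgfa) was chosen after its values were seen. Of 106 list genes, 101 were found on the array by name, 2 by RefSeq accession, and 3 were not matched. The number of arrays, 4 per group, limits the precision.

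Alternatives covered the background (normexp, with an offset of 50), the scaling (none, quantile, or a percentile taken over probes that were above background everywhere), the probes of a gene (the brightest, or a mean of log2 values), the deposited log2 matrix, the filter on dim genes (none, or strict), the test (SAM, the study's fold cutoffs, fits limited to the groups compared, and a block for the replicate number), and the arrays (each left out in turn). Replicate numbers did not pair the samples: over 24 pairs of samples with the same number, deviations from the group means correlated between -0.319 and 0.205, and over 0.1 in 2 pairs.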

Additional observations from a re-analysis of the deposited data

Results flagged for a closer look

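Among 50 sets of 4 arrays (10 members in 5 groups), 1 had an array apart from the rest by Dixon's ratio, which exceeds its critical value in about 1 of 20 sets by chance. Ier5 in IRI+Hemin replicate 4 was at 3.842, while the 3 other arrays lay between 3.581 and 3.623, a gap of 0.837 of the whole range. Every array of the group lay above Control, as in 19.8% of all genes tested.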

How the results depend on the processing

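The count of 8 members higher in IRI than in Control became 9 with no filter on dim genes (Egr3) and 7 in SAM (without Egr1), and was 8 under the other alternatives run. No member that passed a test changed sign. Normexp background correction lowered called differences from Control by over 1.5-fold for Egr2 (to 1.98 in IRI, 1.50 in IPC+IRI and 2.18 in IRI+Hemin), Nr4a2 (to 1.07, 1.12 and 0.18, the last not called) and Myc (to 3.21 in IRI). The mean of log2 values over probes left Ier2 at 1.56 in IRI, and the deposited matrix left it at 0.74 in IRI+Hemin (adjusted p = 0.375) and at -1.89 in IRI+Hemin vs IRI. SAM called 4 members in IPC+IRI vs Control, 4 in IRI+Hemin vs Control, 1 in IRI+Hemin vs IRI and 0 in Hemin vs Control, where limma had called 8, 8, 2 and 1. Over all genes tested, SAM called 2206, 2654, 1063 and 887 in these comparisons, fewer than limma did. In IPC+IRI vs IRI, 2 members were called with no filter on dim genes (Egr3 joined Myc). In IRI+Hemin vs IRI the count of 2 became 1 without normalization between arrays, 1 with the mean of log2 values over probes, 3 with normexp background correction (with Nr4a2, adjusted p = 0.00499), 4 with no filter (with Egr3 and Nr4a3) and 4 in a fit of the compared arrays alone (with Egr1, adjusted p = 0.036, and Nr4a2, adjusted p = 0.0244). In Hemin vs Control the count of 1 became 3 without normalization, 2 with the deposited matrix, 2 with the strict filter and 0 with the study's 3-fold cutoff, which Myc at -1.405 did not reach; Ier3 was the added gene under the strict filter (adjusted p = 0.0456). Without normalization the median of all genes tested moved from 0.082 to 0.45 in IRI+Hemin vs IRI and from 0.057 to 0.62 in Hemin vs Control, and in IRI+Hemin vs IRI the Ier2 difference was -0.73 on that scale. In Hemin vs Control, 8822 of 18572 genes tested were then called higher and 490 lower. No member was called in the interaction under any alternative run. Of the values of single members, 21 passed the threshold under an alternative and not in the reported fit, 19 the reverse, and 53 differences that passed in neither had the opposite sign. The cause of these changes was not tested.

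With each array left out in turn, the members called numbered 8 to 8 for IRI and for IPC+IRI and 7 to 8 for IRI+Hemin, each against Control, 1 to 2 in IPC+IRI vs IRI, 2 to 3 in IRI+Hemin vs IRI, 1 to 2 in Hemin vs Control and 0 to 0 in the interaction. The call lost was Egr1 without Control replicate 2, and the calls gained were Ier2 without IPC+IRI replicate 1 and Egr2 without IPC+IRI replicate 2, Nr4a2 without IRI replicate 1 or IRI+Hemin replicate 4, and Ier3 without Control replicate 2 or 3. With the replicate number as a block, 8 members were called in each comparison of an injured group with Control, 2 in IPC+IRI vs IRI (with Egr2, adjusted p = 0.0417), 3 in IRI+Hemin vs IRI (with Nr4a2, adjusted p = 0.0381), 1 in Hemin vs Control and 0 in the interaction; the numbers do not pair the samples. The slide as a random block could not be fitted, since each group lies on 1 slide, and the fold cutoff was not run where the study states none. Signal over background limits Egr3 and Nr4a3, which cannot be compared at this brightness.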
